A study of Mus musculus with 4 samples.

Results

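The genes described here are the chains of the interleukin receptors through which γδ T cells that make interleukin-17 are kept alive and activated. They were chosen by gene symbol as Il23r, Il12rb1, Il1r1, Il1rap, Il7r, Il18r1, Il2ra, Il2rb, Il2rg and Il6st, and all 10 stood among the 22865 symbols of the count table. All 10 passed the filter on low counts and were among the 9783 genes tested. RNA was sequenced from lung γδ T cells of C57Bl/6 females aged 10 weeks, in 2 libraries from Aire-/- and 2 from Aire+/+ mice, each from 500 cells. The sort took CD45+ TCRgd+ cells without TCRb, CD27 or the Vγ1, 2, 4 and 5 chains, and the libraries were made by Smart-Seq2, which copies full-length cDNA from very small samples. Aire is the nuclear regulator that lets medullary thymic epithelial cells show tissue proteins to developing T cells, so the genotype is that of the whole mouse and not of the sorted cells alone. The labels give neither the null allele, nor whether the genotypes were littermates, nor whether cells of several mice were pooled or libraries came from separate mice. The p-values therefore measure only how far these 4 libraries scatter, and that scatter may be technical. The design asks what differs in the RNA of such lung cells when the mouse lacks Aire.

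Interleukin receptors of this kind are mostly assembled from a chain that binds the cytokine and a partner chain, which is often shared with other receptors. Interleukin-23 is read by IL-23R with the shared chain IL-12Rβ1, and interleukin-1 by IL-1R1 with the accessory protein IL1RAP. Interleukin-18 is read by IL-18R1 with IL18RAP, interleukin-7 by IL-7R with the common γ chain, and interleukin-2 by its α, β and γ chains. Interleukin-6 signals through gp130, the product of Il6st. Interleukins 23 and 1 are the classical inducers of interleukin-17 in γδ T cells, interleukin-7 supports their survival and expansion, and most such receptors pass their signal to JAK kinases and STAT factors or, for interleukins 1 and 18, to the adaptor MyD88.

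Library totals ran from 1106891 to 1265239 counts. Aire had 0 counts in all 4 libraries, which allows up to 3 counts or 2.42 to 2.83 CPM, so the targeted gene checks no genotype label. CPM is the count scaled to library size by edgeR with TMM factors, which adjust each library for its composition. All 12 markers of IL-17 γδ T cells had counts in every library. They include the CD3 chains Cd3d, Cd3e and Cd3g and the kinase Blk, so they are not all particular to these cells. Transcripts of B cells, which the sort should lack, were present too. The B cell genes Cd79a, Cd79b and Ms4a1 together reached 1.48 and 0.999 times the Cd3d, Cd3e and Cd3g total in Aire-/- libraries. In Aire+/+ libraries they reached 3.10 and 1.22 times, and replicate 1 stood apart. In the same order the 8 B cell markers summed to 2594, 1939, 3957 and 2486 CPM, the 12 γδ T cell markers to 6439, 7199, 4502 and 6342 CPM, and the 7 macrophage and monocyte markers to 268, 321, 617 and 335 CPM. All 8 B cell markers had counts in every library, and Cd14 was at 0 in both Aire-/- libraries. In bulk libraries fewer cells of a type and less RNA per cell cannot be told apart, and the part that B cell or myeloid RNA plays in the values below was not tested.

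None of the 10 receptor chains passed the test between the genotypes, and the chains did not all lean one way. Il23r stood 1.81-fold higher in Aire-/- libraries, Il1r1 1.49-fold, Il7r 1.43-fold and Il18r1 1.33-fold, each with both Aire-/- libraries above both Aire+/+ libraries. The shared chain Il2rg stood at 0.952 times its Aire+/+ level. The accessory chain Il1rap stood at 0.662 times, with both Aire-/- libraries lower, and Il6st at 0.605 times with overlapping groups. These are folds of the edgeR fit, Aire-/- over Aire+/+. At an adjusted p under 0.05 edgeR's quasi-likelihood test called 0 of the 10 chains higher, against 0 (0%) of the 9783 genes tested, and 0 lower, against 2 genes (0.0204%). At an unadjusted p under 0.05 it marked 3 chains as higher, where 2.80% of all genes were so marked, and 0 as lower, where 2.77% were. The chains were chosen with earlier results of these data known, so setting them against all genes is no independent test. DESeq2's Wald test and limma-voom also called 0 chains. Of the 10 chains 7 had a log2 difference above 0, against 50.9% of all genes, and the median log2 difference was 0.26 over the chains and 0.0099 over all genes. All 12 γδ T cell markers lay above 0 with a median of 0.355, and all 8 B cell markers below with a median of -0.463. A lean above 0 was therefore not particular to the receptor chains. Both Aire-/- libraries lay above both Aire+/+ libraries for 4 chains, where 17.1% of all genes did so, and below them for 1, where 17.3% did. Among the 12 γδ T cell markers they lay above for 5 and below for 0. With 2 libraries a genotype, the smallest two-sided p that an exact permutation test of 1 value can give is 0.33.

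**Figure D1:**
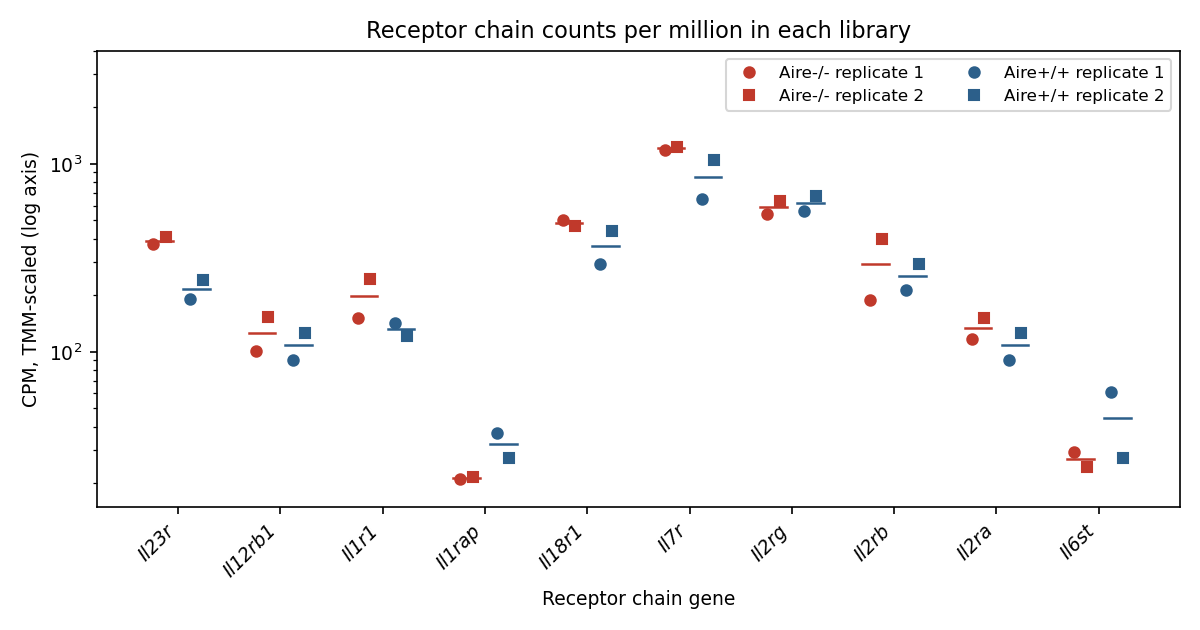
CPM of the 10 receptor chains in each of the 4 libraries on a log axis, with Aire-/- points left of Aire+/+ points and a bar at each pair's mean. Il7r is the most abundant chain by CPM and Il1rap and Il6st the least, and the pairs for Il23r, Il1r1, Il18r1, Il7r and Il1rap do not overlap.

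Il23r encodes the chain that gives the interleukin-23 receptor its specificity and carries the docking sites for STAT3. It lies on chromosome 6 (67422932 to 67491855, minus strand, GRCm38, ENSMUSG00000049093). It had 409 and 431 counts in the Aire-/- libraries and 236 and 282 counts in the Aire+/+ libraries, or 374 and 406 CPM against 191 and 241 CPM. The Aire-/- values are alike and both lie above the higher Aire+/+ value. The log2 fold change was 0.85 (edgeR with SE 0.20, 95% interval 0.41 to 1.29 and adjusted p = 0.61), the smallest p of the 10 chains. It was called at 2 settings, at 0.86 with an adjusted p of 0.040 by edgeR when no filter on low counts was applied, and at 1.03 with an adjusted p of 0.047 without Aire+/+ replicate 2. Without Aire+/+ replicate 1, which held the most B cell RNA, the log2 fold change was 0.68, and over the 4 fits that leave out 1 library it ran from 0.68 to 1.03. Over the edgeR alternatives on the TMM scale with all 4 libraries its adjusted p ran from 0.040 to 0.68.

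Its start region is shown because Il23r had the smallest p of the chains. Il7r, the chain with the next smallest p, follows it, and STAT5 acts downstream of its receptor. The 250 bases before the RefSeq start were read from RefSeq's promoter table (GRCm38.p6), which held 8 of the 10 chains in 11 windows. Capitals mark AGGTCA, a core site of nuclear receptors, on either strand in the Il23r window (chr6:67491856-67492105, minus strand), and TTCNNNGAA, the palindrome bound by STAT factors, in the Il7r window (chr15:9529877-9530126, minus strand). Both are written 5′ to 3′ along the gene.
Il23r: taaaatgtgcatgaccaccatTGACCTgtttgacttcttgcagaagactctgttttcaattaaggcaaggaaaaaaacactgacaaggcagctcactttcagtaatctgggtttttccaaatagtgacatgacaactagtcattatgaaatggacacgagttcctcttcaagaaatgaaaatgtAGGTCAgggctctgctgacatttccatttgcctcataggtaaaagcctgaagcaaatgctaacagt
Il7r: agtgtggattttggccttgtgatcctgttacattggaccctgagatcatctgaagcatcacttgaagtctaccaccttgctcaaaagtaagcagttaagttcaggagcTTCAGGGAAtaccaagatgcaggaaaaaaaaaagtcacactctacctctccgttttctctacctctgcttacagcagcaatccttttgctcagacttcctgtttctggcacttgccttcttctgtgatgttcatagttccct
AGGTCA stood 66 to 61 bases before the Il23r start on the gene's strand and 229 to 224 bases before it on the other strand. Of the 11 windows 1 held this core site, against 4607 of 32851 windows of the same length. TTCNNNGAA stood 142 to 134 bases before the Il7r start, and 2 of the 11 windows held it, those of Il7r and Il18r1, against 7.02% of all windows. The E box CACGTG, the AP-1 site TGACTCA and GGGACTTTC of NF-κB were also sought on both strands, and 0 of the 11 windows held any of them. In the GENCODE M21 annotation the Il7r gene runs from 9505788 to 9530176 on the minus strand, so its window lies inside that annotated gene. These matches describe letters and were not tested as sites of binding.

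Il12rb1, the chain that interleukin-23 and interleukin-12 share, had 110 and 162 counts in Aire-/- libraries and 112 and 147 counts in Aire+/+ libraries. The groups overlap. In CPM it stood at 127 ± 37.0 against 108 ± 24.9 (SD, n = 2 each), with a log2 fold change of 0.23 (edgeR with SE 0.27 and adjusted p = 0.98) and a 95% interval of -0.36 to 0.82 that includes 0. The sign turned to -0.10 without Aire-/- replicate 2 and to -0.0021 without Aire+/+ replicate 1.

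Il1r1, the signalling receptor for interleukin-1, had 165 and 259 counts in Aire-/- libraries and 177 and 142 counts in Aire+/+ libraries. Scaled to library size these were 151 and 244 CPM against 143 and 122 CPM, so the groups do not overlap but Aire-/- replicate 1 lies close to the Aire+/+ pair. The log2 fold change of 0.58 (edgeR with SE 0.26 and adjusted p = 0.89) rested on Aire-/- replicate 2, without which it was 0.19, and it was 0.88 without Aire-/- replicate 1. Il1r1 lies on chromosome 1 (40225080 to 40317257) within a short distance of Il18r1 (40465552 to 40500854), both on the plus strand of GRCm38, in the cluster of interleukin-1 family receptors.

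Il1rap encodes the accessory protein without which IL-1R1 binds interleukin-1 but does not signal, and which the receptors for interleukins 33 and 36 use as well. It had 23 and 23 counts in Aire-/- libraries and 46 and 32 counts in Aire+/+ libraries. Each count of 23 has an exact Poisson 95% interval of 14.6 to 34.5, which covers counting error only and reaches the lower Aire+/+ count. In CPM it stood at 21.4 ± 0.48 against 32.3 ± 6.92 (SD, n = 2 each), with a log2 fold change of -0.60 (edgeR with SE 0.39 and adjusted p = 0.94), and -0.37 without Aire+/+ replicate 1. The table has 1 value per gene, so the membrane and the soluble form of the protein are not separated, and Gm20319 is annotated antisense to part of the gene.

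Il18r1, which binds interleukin-18, was far more abundant than Il1r1, with 551 and 497 counts in Aire-/- libraries and 361 and 511 counts in Aire+/+ libraries. Scaled, these were 503 and 469 CPM against 292 and 437 CPM, so that Aire+/+ replicate 2 lies just under the Aire-/- pair and replicate 1 well below it. The log2 fold change was 0.42 (edgeR with SE 0.21 and adjusted p = 0.91), 0.14 without Aire+/+ replicate 1 and 0.73 without Aire+/+ replicate 2. Its partner Il18rap, the chain that completes the receptor, had 121 and 140 counts in Aire-/- and 145 and 152 counts in Aire+/+ libraries, with a log2 fold change of -0.028 and overlapping groups.

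Il7r, the interleukin-7 receptor chain that lymphocytes need to survive, had 1301 and 1312 counts in Aire-/- libraries and 805 and 1225 counts in Aire+/+ libraries. In CPM these were 1188 and 1237 against 650 and 1048, and the low value belongs to Aire+/+ replicate 1. The log2 fold change was 0.51 (edgeR with SE 0.21 and adjusted p = 0.89). It was called without Aire+/+ replicate 2, at 0.90 with an adjusted p of 0.037, and was 0.20 without Aire+/+ replicate 1. Over the edgeR alternatives on the TMM scale with all 4 libraries its adjusted p ran from 0.40 to 0.90.

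Il2rg encodes the common γ chain, shared by the receptors for interleukins 2, 4, 7, 9, 15 and 21. It had 592 and 673 counts in Aire-/- libraries and 692 and 790 counts in Aire+/+ libraries, or 588 ± 66.4 against 618 ± 82.5 CPM (SD, n = 2 each). The groups overlap after scaling, and the log2 fold change was -0.071 (edgeR with SE 0.18, 95% interval -0.47 to 0.33 and adjusted p = 0.99). A predicted protein-coding gene, Gm20489, overlaps Il2rg on the same strand in the annotation.

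Il2rb, the signalling chain that interleukins 2 and 15 share, had 207 and 423 counts in Aire-/- libraries and 264 and 342 counts in Aire+/+ libraries. The Aire-/- pair spans the Aire+/+ pair, at 294 ± 148 against 253 ± 56.1 CPM (SD, n = 2 each; edgeR's log2 fold change 0.22 with SE 0.30 and adjusted p = 0.98). Il2ra, the α chain that raises affinity for interleukin-2 and is also known from regulatory T cells, had 128 and 160 counts in Aire-/- libraries and 112 and 148 counts in Aire+/+ libraries (edgeR's log2 fold change 0.30 with SE 0.25 and adjusted p = 0.95). Without Aire-/- replicate 2 the Il2ra value was 0.11 and without Aire+/+ replicate 1 it was 0.069, while without Aire-/- replicate 1 it was 0.48 and without Aire+/+ replicate 2 it was 0.56. The regulatory T cell factor Foxp3 had 17 and 7 counts in Aire-/- and 9 and 12 counts in Aire+/+ libraries. The 4 regulatory T cell markers, Foxp3 among them, summed to 262 and 295 counts in Aire-/- and 241 and 302 counts in Aire+/+ libraries. What part such cells play in Il2ra was not tested.

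Il6st, the gp130 chain of interleukin-6 and its relatives, had 32 and 26 counts in Aire-/- libraries and 76 and 32 counts in Aire+/+ libraries. The value of Aire+/+ replicate 1 alone stands high, with an exact Poisson 95% interval of 59.9 to 95.1 against 21.9 to 45.2 for the other Aire+/+ library. The log2 fold change was -0.73 (edgeR with SE 0.42 and adjusted p = 0.93), -0.037 without that library and -1.19 without Aire+/+ replicate 2. That library also held the most B cell and macrophage RNA. Whether these cells carried its Il6st was not tested.

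Levels of different genes were compared per length, as TPM, the count per kilobase of each gene's longest GENCODE M21 transcript scaled to the same total in each library. Over the 4 libraries Il2rg averaged 1135 ± 115 TPM and Il7r 919 ± 250 TPM, and their ranges overlap. Il23r at 385 ± 138, Il18r1 at 323 ± 75.7, Il2rb at 205 ± 72.0, Il12rb1 at 129 ± 31.4, Il1r1 at 89.3 ± 30.4 and Il2ra at 86.6 ± 18.7 TPM followed, each overlapping the next (SD, n = 4, both genotypes together). Il1rap at 18.6 ± 4.81 TPM and Il6st at 12.9 ± 6.00 TPM lay below all others in every library. The step from Il7r to Il23r and that from Il2ra to Il1rap were the only ones where the ranges over the 4 libraries were apart. By mean TPM Il2rg stood at or above 99.4% and Il6st at or above 62.9% of the 21591 genes with a length.

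Within a complex, the level of one chain relative to its partner in the same library does not depend on library scaling. Il23r stood at 4.29 and 3.07 times the TPM of Il12rb1 in Aire-/- libraries, against 2.43 and 2.22 times in Aire+/+ libraries. Il1r1 stood at 5.57 and 8.75 times Il1rap in Aire-/- libraries, against 2.99 and 3.45 times in Aire+/+ libraries. In both receptors the cytokine-specific chain was in excess in all 4 libraries and more so in the Aire-/- pair. Il18r1 stood at 5.35 and 4.17 times Il18rap in Aire-/- libraries, against 2.93 and 3.95 times in Aire+/+ libraries. Il7r stood at 1.04 and 0.920 times Il2rg in Aire-/- libraries, against 0.549 and 0.732 times in Aire+/+ libraries, so these chains were near parity in the Aire-/- pair. Il2rg in turn exceeded the other chains of the interleukin-2 receptor in all 4 libraries, with Il2rb at 0.139 and 0.250 times Il2rg in Aire-/- against 0.152 and 0.172 times in Aire+/+ libraries, and Il2ra at 0.0818 and 0.0900 against 0.0613 and 0.0709 times.

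On the log2 scale the Aire-/- minus Aire+/+ difference of these ratios was 0.65 for Il23r to Il12rb1, 1.12 for Il1r1 to Il1rap, 0.48 for Il18r1 to Il18rap, 0.62 for Il7r to Il2rg and 0.38 for Il2ra to Il2rg. Of the 7 ratios formed, the 5 named here did not overlap between genotypes, where 33.7% of the ratios over all pairs of tested genes counted in every library do not overlap in either direction, while Il2rb to Il2rg (0.21) and Il2ra to Il2rb (0.17) did. Single libraries moved some of these values. The Il23r to Il12rb1 difference was 0.40 without Aire-/- replicate 1, and that of Il18r1 to Il18rap was 0.29 without Aire-/- replicate 1 and 0.26 without Aire+/+ replicate 1. Ratios that share a chain are not independent of each other, and no test is given for them. B cells also express Il2rg, so its denominator may hold RNA of other cells, and the part of this was not tested.

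**Figure D2:**
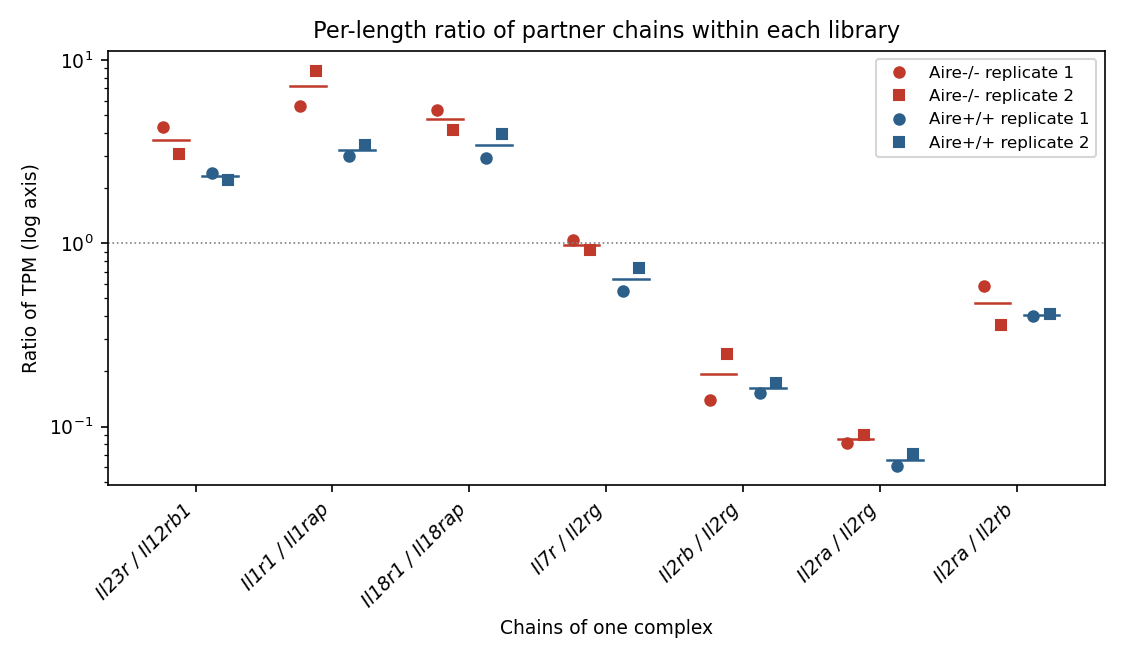
Ratio of TPM between chains of 1 receptor in each library on a log axis, with Aire-/- points left of Aire+/+ points, bars at pair means and a dotted line at equal levels. The ratios of Il23r to Il12rb1, Il1r1 to Il1rap and Il18r1 to Il18rap lie above 1 in all 4 libraries, and 5 of the 7 ratios do not overlap between genotypes, against 33.7% over all gene pairs.

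Relative to T cell RNA, the chains were set against the summed counts of Cd3d, Cd3e and Cd3g, the signalling chains of the T cell receptor. That sum was 1010 and 1087 counts in Aire-/- libraries and 833 and 1283 counts in Aire+/+ libraries, or 922 and 1025 CPM against 673 and 1098 CPM. Il23r stood at 40.5 and 39.6 counts per 100 CD3 counts in Aire-/- libraries, against 28.3 and 22.0 in Aire+/+ libraries. Il7r stood at 129 and 121 against 96.6 and 95.5, and Il18r1 at 54.5 and 45.7 against 43.3 and 39.8 on the same scale. For these 3 chains the Aire-/- pair lies above the Aire+/+ pair on this scale also. Il1r1 overlapped, at 16.3 and 23.8 against 21.3 and 11.1, and Aire+/+ replicate 1 has the smallest CD3 sum. Il1rap stood at 2.28 and 2.12 against 5.52 and 2.49, with both Aire-/- values lower, and Il6st overlapped at 3.17 and 2.39 against 9.12 and 2.49.

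With the CD3 sums as library sizes, edgeR called 0 of the 10 chains higher, against 0 (0%) of all genes, and 0 lower, against 4 genes (0.0409%). The log2 difference was 0.67 for Il23r (SE 0.52, 95% interval -0.34 to 1.68), 0.38 for Il7r (-0.60 to 1.36), 0.32 for Il1r1 (-0.70 to 1.34) and 0.27 for Il18r1 (-0.73 to 1.27). It was 0.13 for Il2ra, 0.053 for Il12rb1, 0.027 for Il2rb, -0.26 for Il2rg, -0.85 for Il1rap and -1.04 for Il6st (95% interval -2.13 to 0.058). All 10 adjusted p rounded to 1.00 by edgeR. Of the 10 chains 7 lay above 0, where 30.0% of all genes did, since the median over all genes shifted to -0.20 on this scale, and the median over the chains was 0.094. Of the 12 γδ T cell markers, which include the CD3 chains, 8 lay above 0 and 4 below, with a median of 0.168. Both Aire-/- libraries were above both Aire+/+ libraries for 3 chains, against 6.18% of genes, and below them for 1, against 16.8%. The intervals are wider on this scale and hold both no change and changes as large as those on the TMM scale. Apart from Il1rap and Il6st the SE was nearly the same for each chain, from 0.50 for Il7r to 0.52 for Il12rb1. Yet Il7r varied little within a genotype, at 129 and 121 against 96.6 and 95.5 per 100 CD3 counts. These intervals therefore follow a spread shared over genes more than the scatter of each chain relative to CD3. The difference for Il1rap was -0.18 without Aire+/+ replicate 1 and -1.33 without Aire+/+ replicate 2. The difference for Il6st turned to 0.15 without Aire+/+ replicate 1, and that for Il1r1 to -0.080 without Aire+/+ replicate 2.

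**Figure D3:**
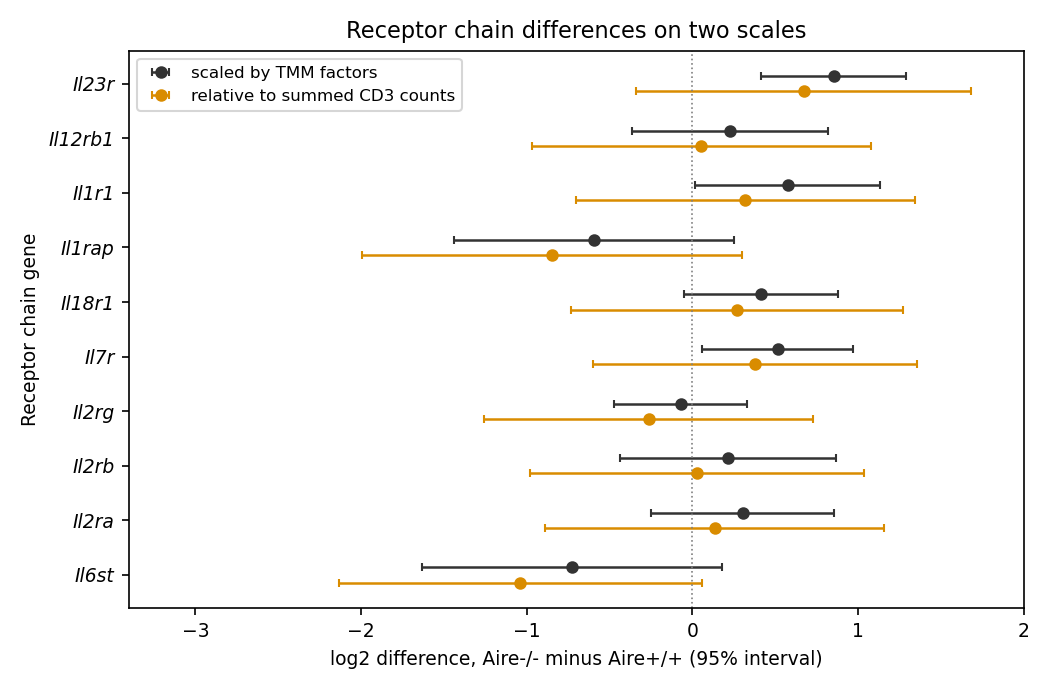
Log2 difference of each receptor chain, Aire-/- minus Aire+/+, with 95% intervals of the edgeR fits, scaled by TMM factors (dark) and relative to summed Cd3d, Cd3e and Cd3g counts (orange). On the CD3 scale all 10 intervals include 0, and on the TMM scale those of Il23r, Il1r1 and Il7r lie above 0 before adjustment over all genes.

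Whether a receptor can be built depends on the chains outside the 10 as well. A chain was counted as present where every library had at least 10 counts. In bulk libraries chains so counted may come from different cells, B cells among them. The count therefore does not show that γδ T cells can build a receptor. By that count 10 of 18 receptors that use the 10 chains had every chain present, namely those for interleukins 1, 2, 4, 7, 18, 21, 23, 27 and 33 and for LIF. The 8 others each had a cytokine-specific or additional chain under 10 counts in at least 1 library, which does not show that the chain was absent. Il6ra, the interleukin-6 receptor chain that pairs with gp130, had 10 and 13 counts in Aire-/- libraries and 29 and 6 in Aire+/+ libraries. Il12rb2, which would turn Il12rb1 into an interleukin-12 receptor, had 11 and 13 counts against 22 and 6, and the interleukin-15 chain Il15ra had 16 and 4 against 11 and 6. Crlf2 for TSLP, Il9r, the oncostatin M chain Osmr, Il1rl2 for interleukin-36 and Il11ra1 for interleukin-11 had 0 to 18 counts in any library. The interleukin-33 receptor was present only just, with Il1rl1 at 20 and 10 counts in Aire-/- and 24 and 32 counts in Aire+/+ libraries. Il1r2, the decoy that binds interleukin-1 without signalling, had 2 and 2 counts in Aire-/- libraries and 34 and 2 in Aire+/+ libraries, the 34 again in Aire+/+ replicate 1.

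**Figure D4:**
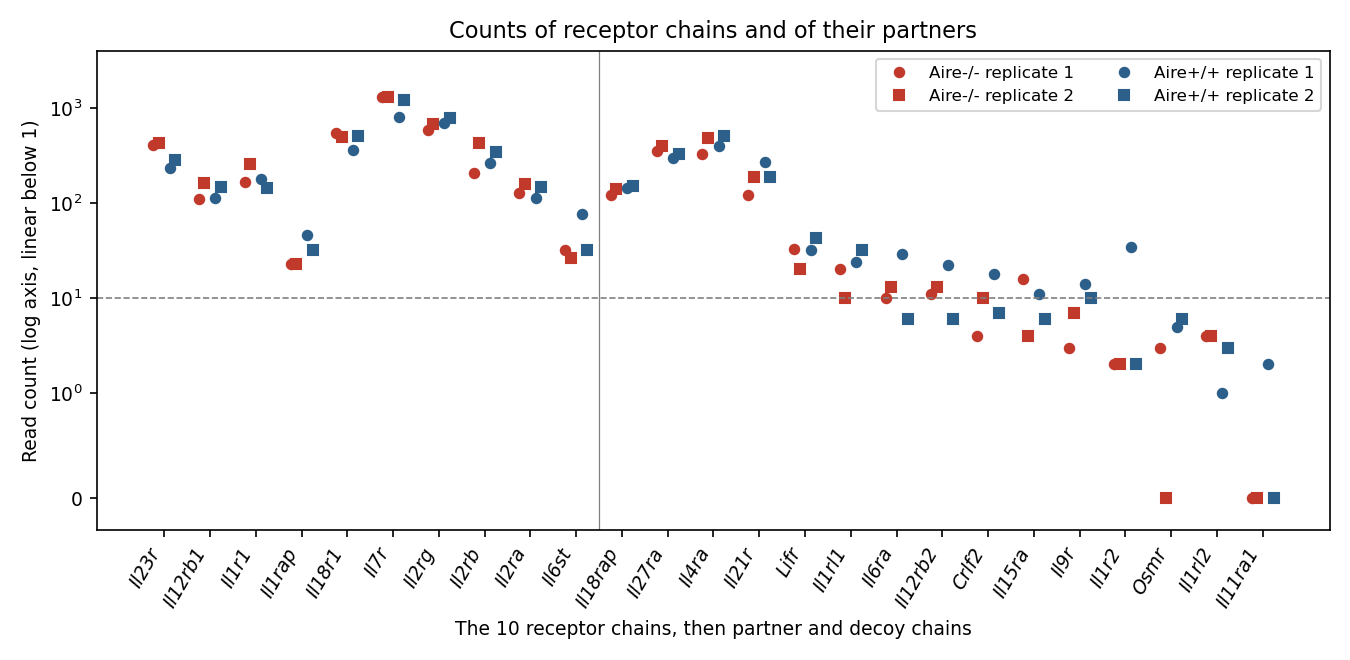
Read counts of the 10 receptor chains and of 15 partner and decoy chains in each library, with Aire-/- points left of Aire+/+ points on a log axis that is linear below 1, and a dashed line at 10 counts. All 10 chains lie above the line in every library, while Il6ra, Il12rb2, Crlf2, Il15ra, Il9r, Il1r2, Osmr, Il1rl2 and Il11ra1 fall below it in at least 1.

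Of 16 partner and decoy chains 10 were tested, and 0 passed in either direction over all genes. Of the 10, 2 lay above 0 and 8 below, where 50.9% of all genes lay above 0. Both Aire-/- libraries were higher in CPM for 1 of them, against 17.1% of all genes, and lower for 1, against 17.3%. The median log2 difference of the 10 was -0.20, against 0.0099 over all genes. Il27ra, which pairs with gp130 for interleukin-27, stood at 351 ± 36.1 against 259 ± 29.3 CPM (SD, n = 2 each; log2 fold change 0.44, adjusted p = 0.89, edgeR), with both Aire-/- libraries higher. Il21r, the interleukin-21 chain that B cells also carry, had 120 and 188 counts in Aire-/- and 267 and 186 counts in Aire+/+ libraries (-0.39, adjusted p = 0.94, edgeR). Il1rl1 (-0.75) and Lifr (-0.35), the LIF receptor chain, did not pass. Il4ra, the interleukin-4 chain, had a log2 fold change of 0.0014.

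All 17 genes of the JAK and STAT relay were tested, 15 lay above 0 and 2 below with a median of 0.18, and 0 passed in either direction. Over all genes 50.9% lay above 0 and the median was 0.0099. Cish, a feedback inhibitor induced through STAT5, had 312 and 385 counts in Aire-/- and 269 and 314 counts in Aire+/+ libraries (0.42). Ptpn6, the phosphatase SHP-1 (0.31), and Socs1, a JAK inhibitor (-0.74), did not pass. Among all 17, 8 had both Aire-/- libraries higher in CPM, against 17.1% of all genes, and 1 had both lower, against 17.3%. All 14 genes of the Toll and interleukin-1 relay were tested too, with 11 above 0 and 3 below, a median of 0.32, and 0 passing. The NF-κB feedback genes Nfkbiz (0.83), an inducer of interleukin-17 targets, Tnfaip3 (0.47) and Nfkbia (0.32) and the kinase Irak2 (0.51) had the smallest p there, with adjusted p from 0.89 to 0.92 by edgeR. Nfkbiz overlapped, at 144 and 322 counts in Aire-/- and 190 and 106 counts in Aire+/+ libraries. Relative to CD3 sums, 6 of the 17 JAK and STAT genes and 9 of the 14 interleukin-1 relay genes lay above 0, where 30.0% of all genes did on that scale.

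The ligands were scarcely measured in these cells. Of 22 ligands and soluble antagonists 4 were tested and 0 passed, while 14 had under 10 counts in every library. Of the 4 tested, 3 lay above 0 and 1 below, where 50.9% of all genes lay above 0. Il23a, the specific subunit of interleukin-23, had 0 counts in all 4 libraries, which allows up to 3 counts in each. Il7 had 8 and 7 counts in Aire-/- and 2 and 19 counts in Aire+/+ libraries. Il1b, encoding interleukin-1β, had 0 and 70 counts in Aire-/- and 27 and 9 counts in Aire+/+ libraries (log2 fold change 1.14, adjusted p = 0.96, edgeR), so single libraries set its value. Il18bp (0.36), the soluble trap of interleukin-18, Lif (0.41) and Osm (-0.16) completed the tested ligands.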

How the data were processed

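The data are RNA-seq read counts per gene symbol, deposited by the authors in 1 table of whole numbers whose columns, per the file headers, are the 4 libraries. The submitters' processing notes list TopHat2 2.0.10, Cufflinks 2.2.1 and mm10 and give no role for them. How reads were counted, with which annotation and strand setting, is not given in the sources used here. Reads of this kit carry no molecular identifiers. The exact Poisson intervals cover counting error only, while the edgeR intervals also include scatter between libraries.

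Groups came from the titles. Counts were tested over all genes with edgeR 4.0.16 (R 4.3.3, limma 3.58.1, DESeq2 1.42.0) using filterByExpr (minimum count 10, total 15), TMM, the quasi-likelihood F test on genotype and Benjamini-Hochberg adjustment, called under 0.05. The SE is the absolute log2 fold change over the square root of F. A second fit took summed Cd3d, Cd3e and Cd3g counts as library sizes on the same genes. TPM used the longest GENCODE M21 transcript (GRCm38, the assembly mm10 names), which gave 21591 symbols a length. On 5 simulated data sets with 200 changed genes among 9783, the TMM fit recovered 74.3% of 4-fold and 26.4% of 2-fold changes. The CD3 fit recovered 70.3% and 22.9%, and 7.1% of its calls were false, against 3.6% for the TMM fit. Counts were drawn with the dispersion trend of the TMM fit and without uneven cell content, so recovery in the real libraries may be lower. The members and lists were chosen with earlier results of these data known. From each list up to 4 genes with the smallest p were named, with the partner chains of a receptor; some genes so chosen are not reported here. Alternatives were DESeq2 (Wald test) and upper-quartile factors, limma-voom, filters, robust dispersion, Rn45s left out, a threshold of 0.1, a replicate block, other CD3 sums, merged exon lengths, detection minimums and each library left out. Figures were drawn with matplotlib 3.10.9 in Python 3.11.15.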

Additional observations from a re-analysis of the deposited data

How the results depend on the processing

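On the TMM scale 0 chains were called at every setting other than 2, with 1 higher when no filter beyond a count above 0 was used (21 genes higher and 26 lower in all) and 0 to 2 higher over the fits that leave out 1 library, the 2 being Il23r and Il7r without Aire+/+ replicate 2. Those fits called 0 to 23 genes higher and 1 to 38 lower, with the lone library of a genotype assumed to vary like the other pair, and limma-voom called 1 lower. The replicate number as a block called 2 genes higher and 4 lower, with 0 chains, and same-numbered libraries deviated with a correlation of -0.077 across genes, so the numbers are not taken as pairs. In the CD3 fit the block left 0 chains called. The CD3 fit called 7 genes lower with Cd247 in the sum, 8 with Cd3e alone, 2 with limma-voom and 1 to 75 with a library left out, and 0 chains at any setting. Chains that turned sign in the TMM fit were Il2rg (0.039 without Aire-/- replicate 1, 0.069 without Aire+/+ replicate 2, and -0.21 at the lowest), Il12rb1 (-0.10 to 0.50) and Il2rb (-0.42 to 0.66), the last 2 as ranges with a library left out. In the CD3 fit they were Il2rb (-0.0072 with Cd247, -0.060 with Cd3d alone, -0.30 with Cd3e alone, -0.036 with limma-voom, -0.035 with the replicate block, and -0.51 to 0.42 with a library left out), Il12rb1 (-0.039 with Cd3d alone, -0.26 with Cd3e alone, -0.19 without Aire-/- replicate 2, -0.059 without Aire+/+ replicate 2, 0.26 at the highest), Il2ra (-0.16) and Il18r1 (-0.0014) with Cd3e alone, Il6st (-1.71 to 0.15) and Il1r1 (-0.080 to 0.86) with a library left out. The causes were not tested. With merged exon lengths the mean log2 per-length ratio moved to 2.05 for Il23r to Il12rb1, 3.44 for Il1r1 to Il1rap, -2.04 for Il2rb to Il2rg and -1.55 for Il2ra to Il2rb, all in the same direction. The genotype difference turned to -0.22 for Il2rb to Il2rg without Aire-/- replicate 2 (up to 0.63 without others) and to -0.18 for Il2ra to Il2rb without Aire-/- replicate 1 (up to 0.53). At a detection minimum of 5 or 20 counts 12 or 9 of the 18 receptors were complete. At the minimum of 10 counts 12 were complete without Aire+/+ replicate 2, and 10 with any other library left out.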

Other observations

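Beyond these receptors, 17 of 24 other cytokine receptor chains were tested, 13 lay above 0 and 4 below, with a median log2 difference of 0.20, against 50.9% of all genes above 0 and a median of 0.0099. On the CD3 scale 9 lay above 0 and 8 below with a median of 0.021, against 30.0% and -0.20 over all genes, and 0 passed on either scale. Ifngr1, the ligand-binding chain of the interferon-γ receptor, had 1530 and 2201 counts in Aire-/- and 932 and 1309 counts in Aire+/+ libraries (log2 fold change 0.89, adjusted p = 0.67, edgeR). Il17re, the chain that reads interleukin-17C, had 136 and 153 counts in Aire-/- and 89 and 99 counts in Aire+/+ libraries (0.78, adjusted p = 0.83, edgeR). For both the Aire-/- pair lay above the Aire+/+ pair in CPM. That held for 3 of the 17 tested chains, against 17.1% of all genes, and the pair lay below for 1, against 17.3%. Il17rc, which pairs with IL-17RA to read interleukin-17A, overlapped at 13 and 31 against 15 and 8 counts (1.1). Il10ra, the interleukin-10 receptor chain, had 126 and 85 counts in Aire-/- and 256 and 126 counts in Aire+/+ libraries (-0.69, adjusted p = 0.89, edgeR), with the high value in Aire+/+ replicate 1, the library with the most B cell and macrophage RNA.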
